A study of Arabidopsis thaliana with 4 samples.

Results

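LEA18 (AT2G35300), AT1G04560, COR47 (AT1G20440), KIN1 (AT5G15960) and KIN2 (AT5G15970) are genes of seed maturation, cold and abscisic acid response in Arabidopsis thaliana. They are 5 of 1801 genes that could be named on the array, and each was measured by 1 probe with a value on all 4 arrays. They were chosen by annotation, and LEA18 and AT1G04560 also because their ratios on these same arrays had been among the most extreme. The values of all 5 genes are therefore given as a description, without a p-value of their own. Each array held RNA of the hy5 mutant and of wild type, both from plants that had spent 4 days under constant white light. The mutant was labelled with Cy3 on replicates 1 and 2 and with Cy5 on replicates 3 and 4. The series describes the arrays as biological replicates. The labels name neither the hy5 allele, the ecotype nor the tissue, and a ratio does not show the level of a transcript, so the plant material could not be checked against tissue markers.

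Late embryogenesis abundant (LEA) proteins are small, very hydrophilic proteins that accumulate in the embryo as the seed dries, and in vegetative tissue under drought, cold or abscisic acid. Dehydrins are one class of them. The hormone acts through bZIP factors such as ABI5, which bind ACGT-containing promoter elements and activate LEA genes, whereas many cold-regulated genes answer to CBF factors at the onset of cold. HY5 is itself a bZIP factor that promotes light-dependent development and binds ACGT-containing elements, and it is known to bind the promoter of ABI5.

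The deposited table does not show in which direction the ratios run. If the dye-swapped arrays had been turned to a common direction before deposition, a difference between the genotypes would have the same sign on every array. If they had not, its sign would follow the dyes. Each gene is therefore given as deposited and with replicates 1 and 2 multiplied by -1, here called turned. For columns not turned before deposition, a positive turned value is an excess in the mutant if they were Cy5 over Cy3 ratios. It is an excess in wild type if they were the inverse. Had the columns been turned already, a sign that follows the dyes would not be a difference between the genotypes. Had they not, the same would hold for a single sign on every array. Which case holds was not tested. Signs are therefore given without saying which genotype had more transcript. No source gives the logarithm's base, which was read as 2, so that a value of 1 would be a doubling, and all log2 values and folds rest on that reading. Of 24153 genes or unnamed probes with values on at least 3 arrays (features), none passed an adjusted p of 0.05 in limma under either reading. Before adjustment, 1829 (7.57%) were under 0.05 as deposited and 2122 (8.79%) when turned, and the test without variance moderation also passed 0 under either reading. Replicate 4 lacked a value for 34.88% of the probes, against 3.29% to 9.55% on the other arrays, and replicate 2 had the widest ratios, with an SD of 1.11 against 0.865 to 0.930.

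LEA18 encodes a LEA protein of the same small family as LEA4-1 and LEA4-5 and is also known as LEA4-2. As deposited, its log2 ratio was -2.71 on replicate 1, -4.02 on replicate 2, 2.89 on replicate 3 and 2.27 on replicate 4. The sign thus followed the dyes, and the arrays of the 2 orientations did not overlap, with a gap of 4.99 between the nearest values. On each array the probe stood at an edge of the distribution. It was at percentile 1.31 and 1.03 of all features on replicates 1 and 2, and at percentile 99.6 and 99.5 on replicates 3 and 4. The mean as deposited was -0.39 ± 3.49 (SD, n = 4), and the spread was much larger than the mean. The turned mean was 2.97 ± 0.75 (SD, n = 4), a 7.86-fold ratio.

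AT1G04560 encodes an AWPM-19-like membrane protein, a family named for a plasma membrane protein of wheat cells treated with abscisic acid. Its log2 ratios as deposited were -2.09 on replicate 1, -3.85 on replicate 2, 3.58 on replicate 3 and 1.54 on replicate 4. They were negative on both arrays with the mutant in Cy3 and positive on both with it in Cy5, as for LEA18, and the nearest values of the 2 orientations were 3.64 apart. The mean was -0.20 ± 3.38 (SD, n = 4) as deposited and 2.77 ± 1.12 (SD, n = 4) turned, the latter a 6.80-fold ratio. Its distance from LEA18 was at most 0.73 on any array. AT1G04560 was the lower in size on replicates 1, 2 and 4 and the higher on replicate 3.

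These 2 genes of the 5 lay beyond 1 on all 4 arrays when turned, on the positive side. Among 16577 features with 4 values, 30 did so (0.181%), and 20 lay below -1 on all 4 arrays (0.121%). Because the ratios on these arrays had drawn attention to both genes, their count cannot be read against that share. Of the 1203 named genes with 4 values, 3 (0.249%) lay above 1 throughout, and the remaining one was AT2G16005. By turned mean LEA18 ranked first and AT1G04560 ranked second of these 1203 genes, and they ranked 13 and 17 of all 16577 features. By the mean as deposited they stood at percentile 17.2 and 27.9 of the same features, so the high ranks belong to the turned reading alone. All 12 features above LEA18 were probes without a name or with a name withheld here. Among 1658 named genes with values on at least 3 arrays, the highest turned mean was 3.99, above that of LEA18. None of the 5 genes lay beyond 1 in a single direction on all 4 arrays as deposited, where 104 features (0.627%) lay below -1 and 3 (0.0181%) above 1.

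**Figure D1:**
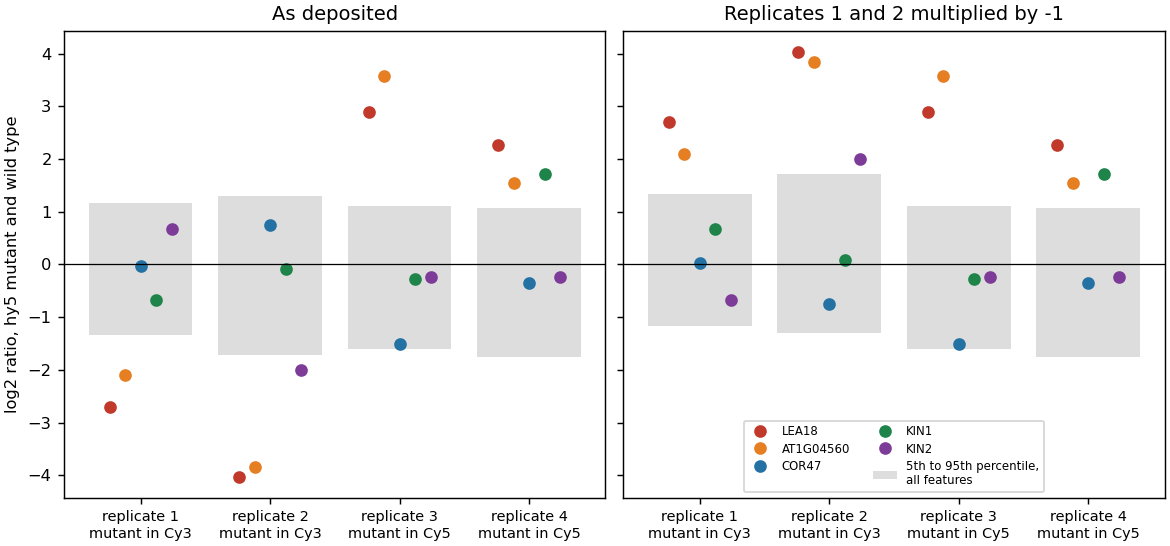
Log2 ratio of the 5 genes on each array (points), as deposited (left) and with replicates 1 and 2 multiplied by -1 (right); grey bars span percentiles 5 to 95 of all features on that array. LEA18 and AT1G04560 lie outside the grey bar on every array and change sides with the dye of the mutant, whereas COR47 stays inside it and KIN1 and KIN2 leave it on 1 array each.

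COR47 encodes an acidic dehydrin that is induced by cold and dehydration. Its log2 ratios as deposited were -0.03 on replicate 1, 0.74 on replicate 2, -1.51 on replicate 3 and -0.36 on replicate 4. Its turned ratios ran from -1.51 on replicate 3 to 0.03 on replicate 1, with 3 of 4 below 0. The mean was -0.29 ± 0.93 (SD, n = 4) as deposited and -0.64 ± 0.65 (SD, n = 4) when turned, about as large as its SD. Without replicate 3 the turned mean was -0.36. Replicate 3 held the most extreme value under both readings, at percentile 5.6 of that array. LEA18 and COR47 are both classed as LEA proteins, and on every array but one they lay on opposite sides of 0. Both were negative on replicate 1, where COR47 was almost at 0.

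KIN1 and KIN2 encode small, closely similar hydrophilic proteins induced by cold and abscisic acid, and no other gene lies between them in the TAIR10.1 gene table. KIN1 had log2 ratios of -0.68, -0.08, -0.28 and 1.71 on replicates 1 to 4. KIN2 had 0.68, -1.99, -0.24 and -0.24 in the same order. Each gene thus had a single large value, on replicate 4 for KIN1 and on replicate 2 for KIN2, and neither was shared by the other gene. The KIN1 mean was 0.17 ± 1.06 as deposited and 0.55 ± 0.87 when turned (SD, n = 4 each). Without replicate 4 the turned mean of KIN1 was 0.16. The KIN2 mean was -0.45 ± 1.12 as deposited and 0.21 ± 1.21 when turned (SD, n = 4 each). All 4 means were smaller than their SD, so neither gene differed from 0 by more than the spread between arrays. Without replicate 2 the turned mean of KIN2 was -0.39.

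The neighbours also differed from each other. KIN1 minus KIN2 was -1.36 on replicate 1, 1.91 on replicate 2, -0.04 on replicate 3 and 1.95 on replicate 4. On replicates 1 and 4 the genes lay on opposite sides of 0. On replicate 2 both were negative but far apart, and only on replicate 3 were they nearly equal. For comparison, 21 to 43 named genes per array carried 2 probes with a value. The median absolute difference between both probes of such a gene was 0.355, 0.286, 0.447 and 0.567 on replicates 1 to 4. The difference between KIN1 and KIN2 was larger than that of 89.2%, 90.7% and 81% of these genes on replicates 1, 2 and 4, and smaller than that of every one of them on replicate 3. Cross-hybridisation between KIN1 and KIN2 was not tested.

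**Figure D2:**
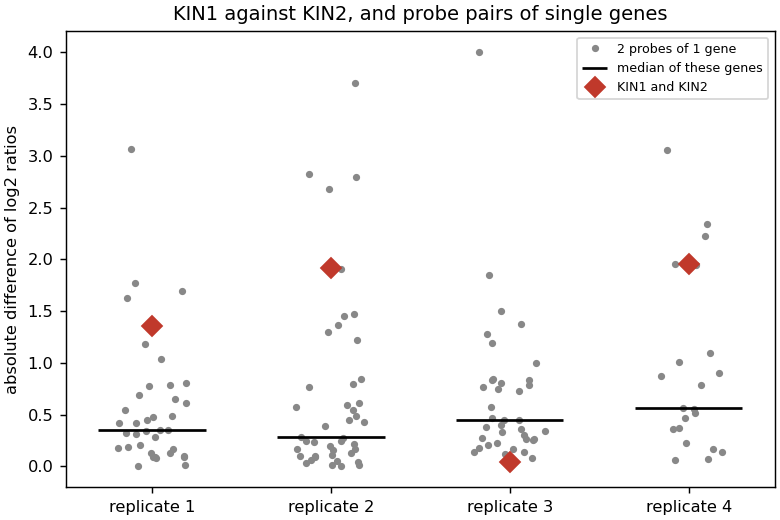
Absolute difference of the log2 ratios between KIN1 and KIN2 (red diamonds) and between the 2 probes of single genes (grey points, 21 to 43 genes per array; black line, median), for each array. The KIN1 and KIN2 values lie in the upper part of the points on replicates 1, 2 and 4 (1.36, 1.91 and 1.95) and near 0 on replicate 3 (0.04).

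Other genes of the same pathways were taken from lists of 119 genes for LEA proteins and dehydrins, AWPM-19-like proteins, cold response, and abscisic acid response and signalling. The annotation names only 15 of them on the array, the 5 genes above included, and 13 had values on at least 3 arrays. None of the 19 abscisic acid response genes and none of the 35 signalling and metabolism genes, ABI5 among them, was analysed here. HY5 was not analysed here either.

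Among 8 LEA and dehydrin genes with values on at least 3 arrays, 5 were positive on every array with a value when turned, and 0 were negative on every one. Over all features these shares were 12.6% and 11.9%. LEA18 is 1 of the 5 and had been chosen for this behaviour, and the list itself was drawn up with earlier results of these data known. The count is therefore a description and is not set against these shares. The median turned mean of the 8 genes was 0.97 and that over all features was -0.01. For the same reason this median is a description only. As deposited, 0 of the 8 kept a single sign, where 10.5% of all features were positive and 11.6% negative throughout. No gene of the lists passed the adjusted threshold in limma.

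AT3G17520, a LEA family gene, had log2 ratios as deposited of -0.93, -4.15, 2.50 and 0.38 on replicates 1 to 4. Its turned mean was 1.99 ± 1.70 (SD, n = 4). The sign followed the dyes as for LEA18, but arrays of the same dye differed widely in size, and replicate 2 was far from replicate 1. AT3G02480, another LEA family gene, had -1.02, -3.93 and 1.92 on replicates 1 to 3 and no value on replicate 4, with a turned mean of 2.29 ± 1.49 (SD, n = 3). AT3G15670, of a LEA class with repeated helical motifs, had -0.30, -2.72 and 1.54 on the same 3 arrays and a turned mean of 1.52 ± 1.21 (SD, n = 3).

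LEA4-5 (AT5G06760), of the same family as LEA18, had -0.13, -0.99, 0.42 and 0.17 on replicates 1 to 4. It showed the sign pattern of LEA18 at a much smaller size, with a turned mean of 0.42 ± 0.40 (SD, n = 4). LEA4-1 (AT1G32560), the remaining gene of that family, had values on 2 arrays only and is named after its values were seen. It was at -3.32 on replicate 2 and 2.51 on replicate 3, close to LEA18 on both. LEA4-5, on 4 arrays, and LEA4-1, on 2, thus had the sign of LEA18 on every array with a value, with turned means of 0.42 and 2.92. Of all features with at least 1 array of each dye orientation, 13% were positive on every array with a value when turned. Because these genes were listed or named with values of these data known, their signs are not set against that share. Whether LEA18, LEA4-1 and LEA4-5 probes share signal was not tested.

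The dehydrin genes did not show this pattern. AT2G21490, a dehydrin gene with the symbol LEA, had 0.01, -1.70, -1.14 and -0.33 on replicates 1 to 4, with means of -0.79 ± 0.78 as deposited and 0.06 ± 1.20 when turned (SD, n = 4 each). AT1G54410, which encodes the small dehydrin HIRD11, had -1.27, -0.02, -2.43 and 0.44, with means of -0.82 ± 1.30 and -0.17 ± 1.59 (SD, n = 4 each). Together with COR47, 0 of 3 dehydrin genes were of a single sign when turned, against 5 of 5 other LEA genes with values on at least 3 arrays. This division of the list was made after the values were seen and carries no test, and LEA18 had been chosen for this behaviour. Over all features 12.6% were positive and 11.9% negative throughout when turned, so most features likewise kept no single sign. Without replicate 3, AT1G54410 was positive on every remaining array when turned. AT3G22490, a seed maturation protein gene, is a further LEA gene with values on 2 arrays only, likewise named after the fact. It was positive on both, at 0.50 on replicate 2 and 0.26 on replicate 3, unlike LEA4-1 on the same arrays.

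**Figure D3:**
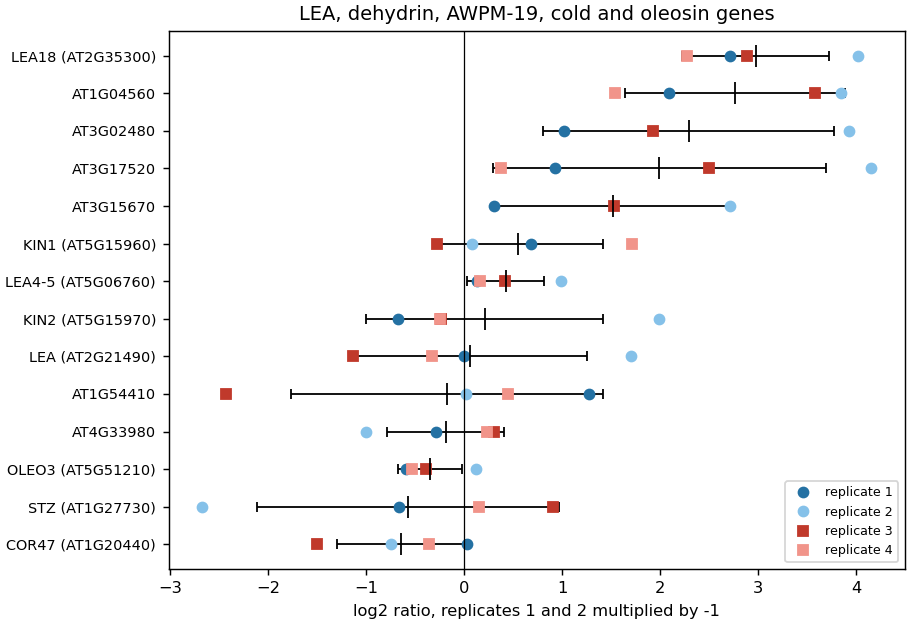
Log2 ratio with replicates 1 and 2 multiplied by -1 for each measured LEA, dehydrin, AWPM-19-like, cold and oleosin gene with values on at least 3 arrays (coloured points, arrays; black tick and bar, mean and SD). The 5 LEA genes that are not dehydrins and AT1G04560 have every point above 0, with turned means from 0.42 to 2.97, and replicate 2 is their highest point.

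The 5 cold genes had turned means from -0.64 to 0.55. Apart from COR47, KIN1 and KIN2, the list held STZ (AT1G27730, ZAT10), a zinc-finger repressor induced by many stresses, and AT4G33980 (COR28), a cold-regulated gene. STZ had 0.67, 2.67, 0.91 and 0.15 on replicates 1 to 4, positive on each, with a mean of 1.10 ± 1.09 (SD, n = 4) as deposited and -0.57 ± 1.54 (SD, n = 4) when turned. AT4G33980 was also positive throughout as deposited, at 0.29, 0.997, 0.30 and 0.23, with a mean of 0.45 ± 0.36 (SD, n = 4). Thus 2 of the 5 cold genes were positive on every array as deposited, as were 10.5% of all features, and 0 of 5 kept 1 sign when turned, where 12.6% of all features were positive and 11.9% negative throughout. The median of the 5 means was 0.17 as deposited and -0.19 when turned.

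Markers of other tissue were sparse. Of 23 seed storage and embryo genes, only the oleosin gene OLEO3 (AT5G51210), which encodes a protein of the seed oil body, was measured. It had 0.59, -0.12, -0.39 and -0.54 on replicates 1 to 4 and a turned mean of -0.35 ± 0.32 (SD, n = 4), on the other side of 0 from LEA18. The other storage protein genes were not analysed here, and the part of residual seed tissue in the LEA ratios was not tested. The 8 measured photosynthesis genes had turned means from -0.44 to 0.19, and the root gene PYK10 had 0.10. Of these 8 genes, LHCB4.2 and PSBY were negative on all 4 arrays when turned and 0 were positive on all, against 11.9% and 12.6% of all features. Their part in the LEA ratios was not tested.

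The arrays of 1 dye orientation ordered the turning genes alike. LEA18, AT1G04560, LEA4-5 and AT3G17520 had 4 values each, and in all 4 the ratio was larger in size on replicate 2 than on replicate 1, and larger on replicate 3 than on replicate 4. Of 1815 features with 4 values that were positive throughout when turned, 755 (41.6%) had this order. The 4 genes were taken because they turned with the dyes, LEA18 and AT1G04560 also for their extreme ratios on these arrays, so nothing is read from that share. The order was kept by all 4 genes after the arrays were scaled to equal SD. Whether the arrays differed in background or in labelling was not tested.

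**Figure D4:**
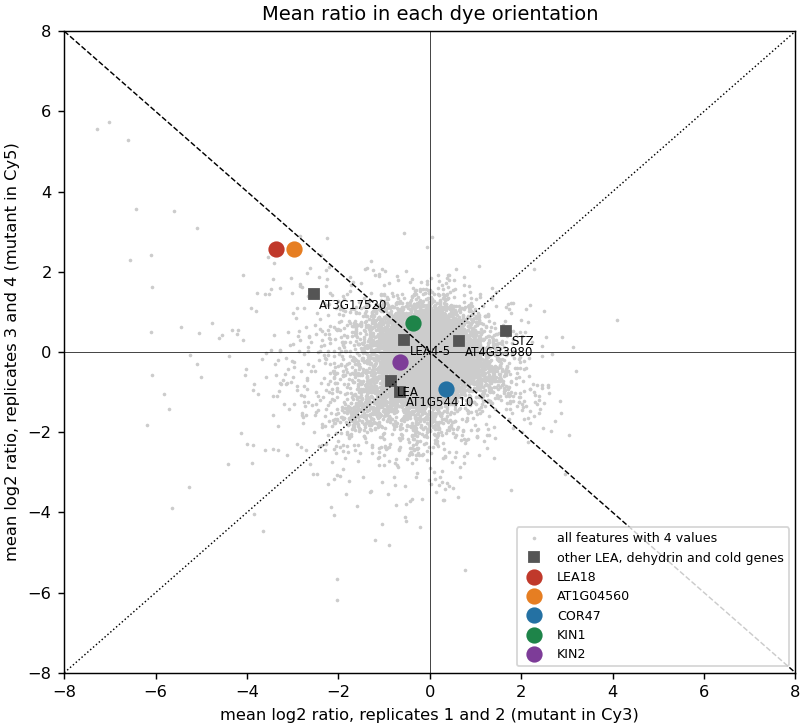
Mean log2 ratio of replicates 3 and 4 (mutant in Cy5) against that of replicates 1 and 2 (mutant in Cy3), as deposited. Shown are all features with 4 values (grey), the 5 genes (coloured) and the other LEA, dehydrin and cold genes with 4 values (squares). The square named LEA is the dehydrin gene AT2G21490. The dashed line marks ratios that turn with the dyes and the dotted line ratios that keep their sign; LEA18 (-3.37 and 2.58) and AT1G04560 (-2.97 and 2.56) lie near the dashed line, while COR47, KIN1 and KIN2 lie within 1 of 0 on both axes.

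The genes most like each of the 5 were found by the root mean square difference of the 4 log2 ratios, over 1202 other named genes with 4 values. LEA18 and AT1G04560 were each other's nearest gene, at 0.597. Both had been chosen for extreme ratios on these same arrays, so nothing is read from their nearness. AT2G16005 came second for both, at 0.878 from LEA18 and 0.850 from AT1G04560. AT2G16005 had -1.40, -3.16, 2.23 and 1.86 on replicates 1 to 4. The third was AT4G12545 for LEA18, at 1.28, and AT3G17520 for AT1G04560, at 0.996. These distances were larger than those of the nearest genes of COR47, KIN1 and KIN2.

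COR47 lay nearest to ALDH7B4 (AT1G54100), a stress-induced aldehyde dehydrogenase gene, at 0.194. ALDH7B4 had -0.32, 0.55, -1.34 and -0.40 on replicates 1 to 4. The next were AT1G27030 at 0.256 and ZCF37 at 0.273. KIN1 lay nearest to AT2G29360 at 0.153, AT5G19900 at 0.203 and AT5G53140 at 0.218, all of which shared its high value on replicate 4, from 1.64 to 2.02. KIN2 lay nearest to AT1G76880 at 0.255, AT1G14940 at 0.452 and the histone H2B gene HTB2 at 0.486, which shared its low value on replicate 2, from -1.82 to -1.20. Nearest genes were picked by these same 4 ratios, so a shared extreme value follows from the choice and nothing is read from it. KIN1 and KIN2 were 1.53 apart by the same measure, and neither was among the nearest genes of the other. LEA18 was 3.75 from COR47, 2.74 from KIN1 and 2.82 from KIN2.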

How the data were processed

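Total RNA of hy5 and wild-type plants was hybridised together on each of 4 dye-swapped oligonucleotide arrays. The authors deposited log ratios, 1 per probe and array, which are read here as log2. The only tool listed, per the submitters' processing notes, is limma. Not given in the sources used here are background correction, normalization, the filter behind empty cells, the base of the logarithm and the direction of the ratios. Intensities were not used, so any dim or saturated spots left in the data could not be recognised. Precision is limited by having 4 arrays. Of 27648 probes, 2032 had 1 gene in the platform annotation, which can be old, 644 had several and 24972 had none. Symbols were updated by Entrez ID in a TAIR10.1 gene table (2029 probes matched). Probes of a gene were averaged per array, and names were withheld from 26 genes whose accession served 3 or more probes, apart from those spotted 17 times, which left 1801 named genes.

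Both readings of the table were kept: as deposited, and with replicates 1 and 2 multiplied by -1. For the background, limma 3.58.1 in R 4.3.3 (lmFit, eBayes, intercept only, two-sided, Benjamini-Hochberg threshold 0.05) tested 24153 features, meaning genes or unnamed probes with values on at least 3 arrays. The fit as deposited was checked on simulated data with changes larger than any mean of the 5 genes. That check does not show whether smaller changes would be called. Members and gene lists were chosen with earlier results of these data known, so the members are given no p-value of their own. Dixon's gap test was used only to flag an array far from the others. The text names the members, measured genes of the lists and, for each member, the 3 named genes nearest by root mean square difference. Motif and protein comparisons that had been planned were not made, and no sequences or coordinates are given.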

Additional observations from a re-analysis of the deposited data

Results flagged for a closer look

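In 4 of 42 sets of 4 values tested with Dixon's gap test, 1 array lay far from the other 3. Each gene was tested under both readings, so the sets are not independent, and PYK10 was flagged under both. Chance would flag about 1 in 20 independent sets, so the count is not set against that rate. KIN2 when turned was at 1.99 on replicate 2, against -0.677 to -0.238 on the others. AT4G33980 as deposited was at 0.997 on replicate 2, against 0.230 to 0.303. PYK10 was at 0.406 on replicate 4, against -0.029 to 0.0398 as deposited and -0.0398 to 0.029 when turned.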

How the results depend on the processing

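Turned means of LEA18 and AT1G04560 stayed positive under every alternative run. For left-out arrays and the median this was fixed in advance, since all 4 turned values of both genes were positive. With each array left out in turn the means of LEA18 ranged from 2.625 to 3.208 and those of AT1G04560 from 2.405 to 3.173. Of 90 values of the 5 genes under alternatives, all moved by less than 1 SD between arrays, which for the means as deposited is wide, and 14 changed sign. With 4 arrays, leaving 1 out, taking 1 dye alone or taking the median cannot move a mean by 1 SD. Nothing is read from that limit for these settings, and only the centred, scaled or quantile normalized arrays could have passed it. Turned means also moved by over 1.5 times for COR47 without replicate 3 (-0.3579) and for KIN1 without replicate 3 (0.8225) or 4 (0.1603). That of KIN2 did so without replicate 1 (0.5045), 3 (0.3581) or 4 (0.3592) and with arrays scaled to equal SD (0.1335). As deposited, LEA18 became positive without replicate 1 (0.3796), without replicate 2 (0.8163) and on the Cy5 arrays alone (2.581), and so did AT1G04560 (0.4248, 1.01 and 2.561). COR47 became positive without replicate 3 (0.1195) and on the Cy3 arrays alone (0.358). KIN1 became negative without replicate 4 (-0.3447), by the median of the arrays (-0.1776) and on the Cy3 arrays alone (-0.3787). KIN2 became positive without replicate 2 as deposited (0.06595), and when turned it became negative without replicate 2 (-0.3855) and by the median (-0.2396). The cause was not tested. The limma fits called 0 features under all alternatives run for either reading. The count of 5 LEA and dehydrin genes positive throughout when turned, whose alternatives were chosen after seeing the data, stayed at 5, or 6 without replicate 3, where AT1G54410 joined it. Each ratio already pairs mutant and wild type on 1 array, and all 4 arrays form 1 group, so no further pairing was possible. Each of the 5 genes had 1 probe, so the planned look at single probes gave no value for them. Signal over background was not used, so its limit is unknown.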
